A study of Mus musculus with 8 samples.

Results

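The 7 chemokine receptor genes Ccr1, Ccr2, Ccrl2, Cx3cr1, Cxcr2, Cxcr3 and Cxcr4 were measured by 3′ RNA sequencing in myeloid cells of mouse brain tumors. They were chosen by gene name, and all 7 members were found among the 55450 genes of the count table. The cells were macrophages derived from bone marrow (BMDM, which enter the tumor from the blood as monocytes, 5 libraries) and microglia (the resident macrophages of the brain, 3 libraries). Both came from animals labelled WT that carried GL261 tumors, an isogenic mouse glioma line implanted in the brain. Strain, age and sex are not given in the labels used here. BMDM were sorted as F4/80 and CD11b positive, CD45 positive and CD49d high. Microglia were F4/80 and CD11b positive, CD45 low and CD49d low or negative. In both gates Ly6C was low or negative and Ly6G negative, and none of the 7 receptors was used to sort. Nothing in the labels says that each library is its own mouse. The p-values therefore rest on library-to-library spread, which may be technical.

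Chemokines are small secreted proteins that steer cell migration, and their receptors span the membrane and couple to inhibitory G proteins. CCR2 draws monocytes out of the bone marrow and into tissue along CCL2 and related ligands, while CX3CR1, which binds fractalkine (CX3CL1), is a classical receptor of microglia. CXCR4 holds leukocytes in CXCL12-rich niches such as bone marrow, and CCRL2 is an atypical receptor that presents chemerin without G protein signaling.

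Library totals were 5890406 to 9169531 counts in BMDM and 10491469 to 16659154 in microglia. Libraries did not all look alike within a group. Gm42418, a gene model overlapping ribosomal RNA, took 41.2% and 48.9% of counts in BMDM 4 and BMDM 5, against 14.8% to 19.8% in BMDM 1 to 3, and 34.0% to 47.0% in microglia. BMDM 4 and BMDM 5 had 13346 and 14638 genes with a count, against 20011 to 21778 in BMDM 1 to 3. The 8 microglia markers (P2ry12, Tmem119, Sall1 and others) summed to 204 to 770 CPM in BMDM and 1383 to 3807 CPM in microglia. The 8 monocyte markers (Ly6c2, Plac8, Itga4 and others) summed to 562 to 1174 CPM in BMDM and 189 to 288 CPM in microglia. Most of that sum in microglia was Fn1, with 144, 227 and 141 CPM in microglia 1 to 3. Fn1 (log2 fold change -0.50, BMDM minus microglia) and Vcan (0.31) were the monocyte markers not called by edgeR. By edgeR, 6 of the 8 microglia markers were lower and 6 of the 8 monocyte markers higher in BMDM. The microglia markers not called were Tmem119 (-1.35, edgeR adjusted p = 0.269), whose groups overlapped, and Gpr34 (-3.91, edgeR adjusted p = 0.112), whose groups did not. Itga4 encodes CD49d, so its part in the monocyte sum was set by the gate. Ly6c2 encodes a form of Ly6C, which was low or negative in both gates. Its mRNA nonetheless averaged 233 CPM in BMDM, against 4.39 CPM in microglia, and the reason was not tested. CPM are counts relative to the library total, after TMM factors that adjust each total for differences in composition. B cell, dendritic cell, endothelial, and glial and tumor cell markers gave 0 calls by edgeR and by DESeq2. At an unadjusted edgeR p under 0.05, 1 endothelial marker was higher and 1 glial or tumor marker lower in BMDM. B cell markers summed to 12.4 to 38.7 CPM in BMDM and 11.2 to 17.1 CPM in microglia, and endothelial markers to 65.7 to 88.9 CPM in BMDM and 33.2 to 61.2 CPM in microglia. Glial and tumor markers summed to 77.4 to 119 CPM in BMDM and 74.5 to 191 CPM in microglia. Ly6g, Cd79a, Blk and Cd209a were at 0 in all microglia libraries and Tek in all BMDM libraries.

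BMDM had 29.8-fold more Ccr2, 7.58-fold more Ccr1 and 4.66-fold more Cxcr4 mRNA than microglia, and microglia had 3.71-fold more Cx3cr1 than BMDM. Ccrl2 did not pass the test, and Cxcr2 and Cxcr3 had too few counts to pass the filter of the main test. The filter on low counts left 5 receptors. By the quasi-likelihood test of edgeR, at a Benjamini-Hochberg adjusted p of 0.05, BMDM had 3 of them higher and 1 lower. Of the 16467 genes tested, 1.93% were called, 1.11% higher and 0.814% lower. For the same 3 every BMDM library lay above every microglia library, as for 4.32% of all genes tested. For the same 1 every BMDM library lay below, as for 8.66%. With only BMDM 1 to 3 against the 3 microglia libraries, the same 4 were called, where 14.5% of 16182 genes were, 6.35% higher and 8.11% lower. The members were chosen with earlier results of these data known, so these counts are a description. In bulk samples a smaller number of expressing cells and less RNA per cell cannot be told apart.

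**Figure D1:**
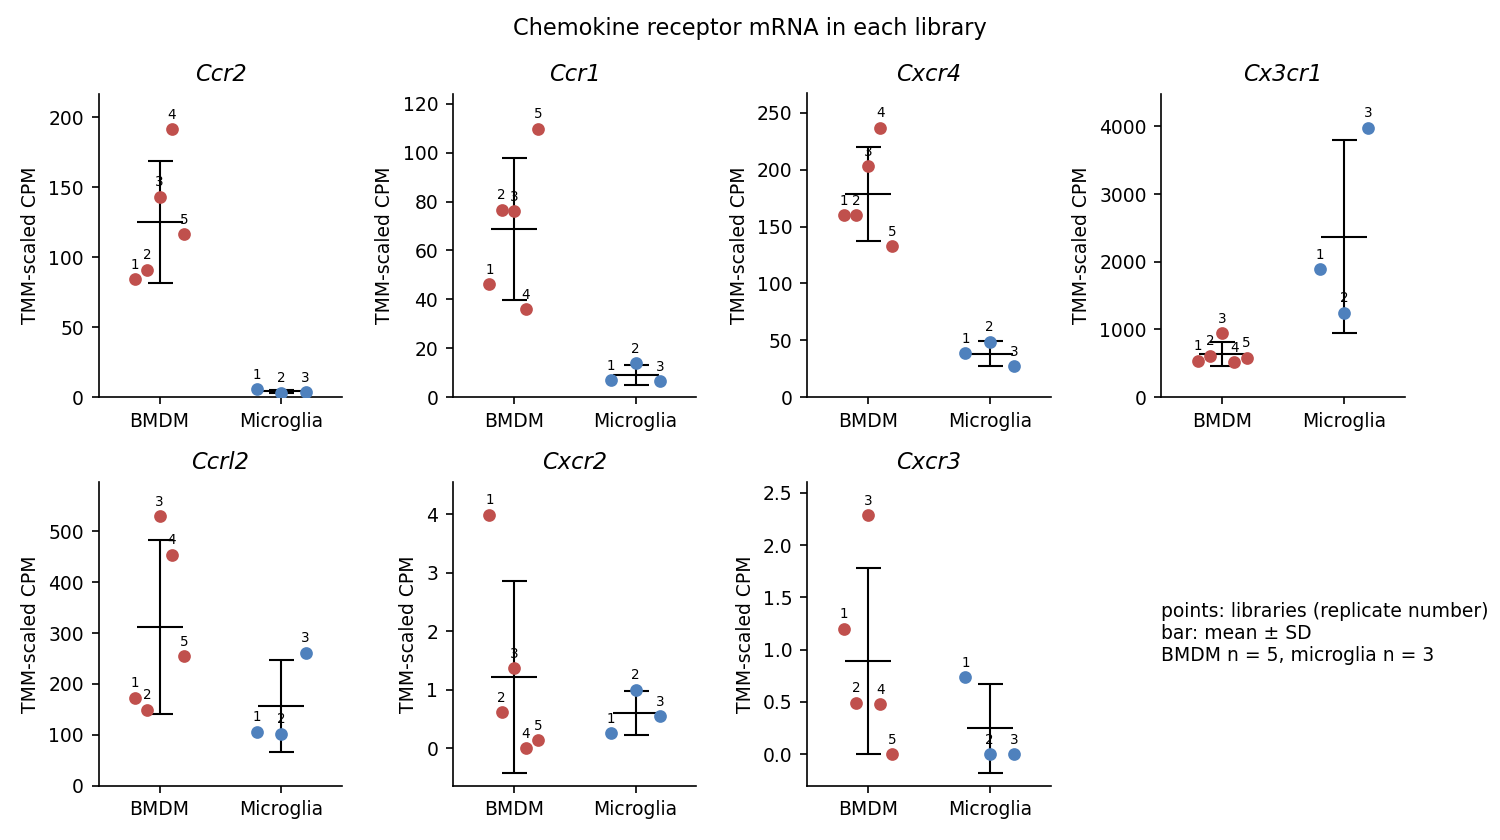
TMM-scaled CPM (y axis, linear, a separate scale for each gene) of the 7 receptors in 5 BMDM libraries (red) and 3 microglia libraries (blue). Points carry the replicate number and bars give the mean ± SD. Ccr2, Ccr1 and Cxcr4 are higher in every BMDM library than in any microglia library, and Cx3cr1 is lower in every BMDM library than in any microglia library. For Ccrl2, Cxcr2 and Cxcr3 the groups overlap.

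Of the members, 4 lie on chromosome 9, 2 on chromosome 1 (Cxcr2 and Cxcr4) and 1 on chromosome X (Cxcr3). Promoters of all 7 members were found in RefSeq (GRCm38.p6), each a window from 250 bases before to 50 bases after the start. The windows of the 4 called receptors are shown, 5′ to 3′ on the gene's strand, so that those of the 3 receptors higher in BMDM can be set beside that of Cx3cr1. They are chr9:124101933-124102232, plus strand for Ccr2, chr9:123968643-123968942, minus strand for Ccr1, chr1:128592250-128592549, minus strand for Cxcr4 and chr9:120068247-120068546, minus strand for Cx3cr1. Capitals mark every match on either strand to 1 of 7 short motifs. GAGGAA is a core bound by the myeloid factor PU.1, and GGGCGG is the GC box. The TATA box was searched as TATAAA, and hypoxia-inducible factor sites as ACGTG or as its variant GCGTG. AP-1 sites were searched as TGANTCA, and STAT sites as TTCNNNGAA.
Ccr2: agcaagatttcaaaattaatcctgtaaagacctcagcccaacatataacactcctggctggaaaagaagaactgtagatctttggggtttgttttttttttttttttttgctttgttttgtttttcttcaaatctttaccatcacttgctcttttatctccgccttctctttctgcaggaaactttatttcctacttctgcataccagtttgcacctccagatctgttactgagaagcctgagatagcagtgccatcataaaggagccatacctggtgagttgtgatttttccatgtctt
Ccr1: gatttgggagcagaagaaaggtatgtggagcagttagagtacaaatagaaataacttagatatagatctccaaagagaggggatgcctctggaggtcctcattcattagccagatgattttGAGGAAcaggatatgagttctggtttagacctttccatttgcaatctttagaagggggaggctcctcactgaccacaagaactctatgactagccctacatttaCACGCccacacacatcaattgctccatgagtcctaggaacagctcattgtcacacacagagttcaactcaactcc
Cxcr4: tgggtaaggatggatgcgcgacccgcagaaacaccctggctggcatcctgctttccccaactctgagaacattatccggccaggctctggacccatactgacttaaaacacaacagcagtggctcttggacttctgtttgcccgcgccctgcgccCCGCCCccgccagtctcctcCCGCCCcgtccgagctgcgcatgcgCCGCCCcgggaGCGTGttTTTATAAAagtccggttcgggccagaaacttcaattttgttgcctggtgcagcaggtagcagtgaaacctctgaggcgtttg
Cx3cr1: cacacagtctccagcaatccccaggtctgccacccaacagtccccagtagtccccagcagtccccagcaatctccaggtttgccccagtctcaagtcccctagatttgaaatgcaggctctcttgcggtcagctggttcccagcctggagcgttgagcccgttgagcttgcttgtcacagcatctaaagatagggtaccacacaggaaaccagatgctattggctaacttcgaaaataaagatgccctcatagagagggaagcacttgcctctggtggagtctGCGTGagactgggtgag
The Ccr2 window held none of these letters and was poor in G and C (38.0%, above 7.0% of all promoters). The Cxcr4 window was rich (59.3%, above 68.9% of all promoters). RefSeq begins the Ccr2 gene at 124101918, before the first base of its window. That window therefore lies inside the gene, and the bases before 124101918 were not searched. The windows of Ccr1, Cxcr4 and Cx3cr1 span the RefSeq end of each gene. The Cxcr4 window held 3 GC boxes, a GCGTG and overlapping TATAAA matches on both strands 30 bases before the start. Among the 4, GCGTG was found in Ccr1, Cxcr4 and Cx3cr1. It was also found in Ccrl2 and Cxcr3, and in 32.4% of all 32851 promoters. GAGGAA was found in Ccr1 among the 4, also in Cxcr2 and Cxcr3, and in 28.3% of all promoters. Ccrl2, with more than 1 window, held GGGCGG and ACGTG as well. TATAAA was in 13.6% of all promoters, GGGCGG in 35.7%, ACGTG in 19.6%, TGANTCA in 7.8% and TTCNNNGAA in 8.3%. A match is a description of these letters, and no factor's binding was measured.

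Ccr2 (ENSMUSG00000049103.14, chromosome 9, 124101950 to 124113557 on the plus strand, GRCm38) had 84.0, 90.9, 143, 191 and 116 CPM in BMDM 1 to 5, against 5.57, 3.32 and 3.56 CPM in microglia 1 to 3. The lowest BMDM library was far above the highest microglia library, and BMDM 4 was the highest. The means were 125 ± 43.7 CPM in BMDM (SD, n = 5) and 4.15 ± 1.24 CPM in microglia (SD, n = 3), from 4662 and 171 counts in all. The log2 fold change was 4.90 (SE 0.47, edgeR adjusted p = 0.000148). Ccr2 was called under all 17 alternatives tried, with log2 fold changes of 4.63 to 5.17 and adjusted p up to 0.00166.

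Ccr1 (ENSMUSG00000025804.5, chromosome 9, 123962124 to 123968692 on the minus strand) encodes a receptor for CCL3, CCL5, CCL6, CCL7 and CCL9 on monocytes and macrophages. It had 46.2, 76.6, 76.0, 36.0 and 109.7 CPM in BMDM 1 to 5, against 6.83, 14.0 and 6.45 CPM in microglia 1 to 3. The order within BMDM differed from that of Ccr2: BMDM 5 was highest and BMDM 4 lowest for Ccr1, whereas BMDM 4 was highest for Ccr2. The means were 68.9 ± 29.0 CPM in BMDM (SD, n = 5) and 9.09 ± 4.24 CPM in microglia (SD, n = 3). The log2 fold change was 2.92 (SE 0.48, edgeR adjusted p = 0.00527), and the call held under all 17 alternatives (2.66 to 3.32, adjusted p up to 0.0432). Ccr1l1, its close relative on the same chromosome, had 0 counts in every library.

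Cxcr4 (ENSMUSG00000045382.6, chromosome 1, 128588199 to 128592293 on the minus strand) had 160, 160, 203, 237 and 133 CPM in BMDM 1 to 5, against 38.9, 48.9 and 27.1 CPM in microglia 1 to 3. Both groups were tight, the highest library being 1.78-fold above the lowest in BMDM and 1.80-fold in microglia. The means were 178 ± 41.1 CPM in BMDM (SD, n = 5) and 38.3 ± 10.9 CPM in microglia (SD, n = 3), and the groups did not overlap. The log2 fold change was 2.22 (SE 0.38, edgeR adjusted p = 0.00758). The call was lost without microglia 1 (2.22, adjusted p = 0.0615) or without microglia 3 (1.95, adjusted p = 0.0835), and held under the other 15 alternatives.

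Cx3cr1 (ENSMUSG00000052336.7, chromosome 9, 120048683 to 120068296 on the minus strand in RefSeq) had 536, 612, 949, 518 and 581 CPM in BMDM 1 to 5, against 1890, 1248 and 3979 CPM in microglia 1 to 3. It was thus abundant in both populations, and the groups did not overlap, although BMDM 3 came nearest to microglia 2. The means were 639 ± 177 CPM in BMDM (SD, n = 5) and 2372 ± 1428 CPM in microglia (SD, n = 3). The log2 fold change was -1.89 (SE 0.44, edgeR adjusted p = 0.0396), close to the threshold. The call was lost without any 1 of BMDM 1 to 4, microglia 1 or microglia 3 (adjusted p 0.0583 to 0.310, with -1.37 without microglia 3) and with library totals alone (-1.67, adjusted p = 0.0887). All 17 alternatives kept the sign. The 8 microglia markers were also highest in BMDM 3 among BMDM libraries (770 CPM, against 204 to 475 CPM in the other BMDM libraries). BMDM 4, second in these markers (475 CPM), had the lowest Cx3cr1 of the BMDM libraries (518 CPM). The part of microglia RNA in the Cx3cr1 level of BMDM 3 was not tested. GENCODE M21 extends the gene from 119901616 to 120069879. The antisense Gm33858 alone shares exon bases with it, and had 0 counts in BMDM and 19 in microglia.

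The ratio of Ccr2 to Cx3cr1 counts does not depend on library scaling. Ccr2 counts came to 15.7%, 14.8%, 15.1%, 36.9% and 20.01% of Cx3cr1 counts in BMDM 1 to 5, against 0.295%, 0.266% and 0.0895% in microglia 1 to 3. BMDM 4, the highest for Ccr2, was highest here too, and the groups were far apart. Such ratios compare libraries for the same pair of genes, since 3′ counts of different genes are not measured on 1 molar scale.

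The make-up of the receptor counts differed in the same way. Cx3cr1 took 36.1% to 56.2% of the counts of the 7 receptors in BMDM libraries, against 88.1% to 93.0% in microglia libraries. Cxcr4 took 10.7% to 16.5% in BMDM and 0.634% to 3.45% in microglia, and Ccr2 took 7.51% to 13.3% in BMDM and 0.0832% to 0.272% in microglia. The shares of each library add up to a whole, so they are not independent of each other.

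**Figure D2:**
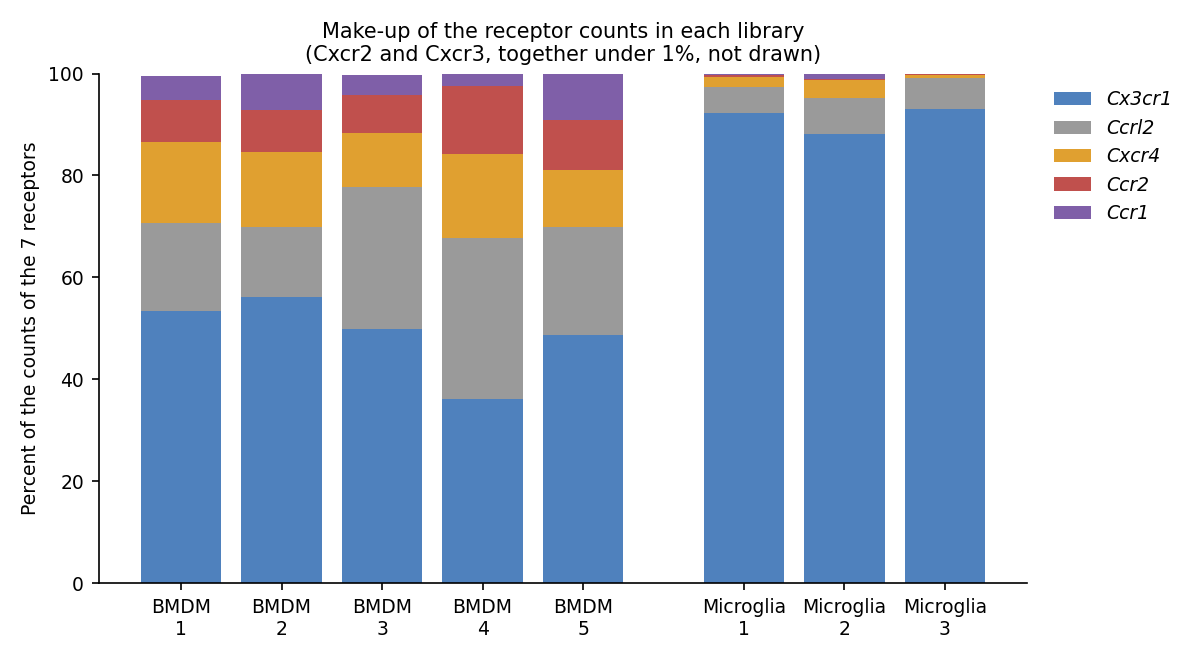
Percent of the 3′ counts of the 7 receptors (y axis, 0 to 100) taken by each of the 5 tested receptors in every BMDM and microglia library (x axis). Cx3cr1 takes 88.1% to 93.0% in microglia and 36.1% to 56.2% in BMDM, where Ccrl2, Cxcr4, Ccr2 and Ccr1 fill most of the remainder. Cxcr2 and Cxcr3 are too few to draw.

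Ccrl2 (ENSMUSG00000043953.12, chromosome 9, 111054486 to 111057519 on the minus strand) had 173, 149, 529, 454 and 254 CPM in BMDM 1 to 5, against 106, 102 and 261 CPM in microglia 1 to 3. Microglia 3 lay above BMDM 1, BMDM 2 and BMDM 5, so the groups overlapped. The spread was wide, 3.54-fold between the highest and lowest BMDM libraries and 2.56-fold between microglia libraries. The means were 312 ± 171 CPM in BMDM (SD, n = 5) and 157 ± 90.7 CPM in microglia (SD, n = 3). The log2 fold change was 0.99 (SE 0.51, edgeR adjusted p = 0.428), so a difference of this size was not separable from the spread between libraries.

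Cxcr2 (ENSMUSG00000026180.8, chromosome 1, 74153989 to 74161246 on the plus strand), the neutrophil receptor for CXCL1 and CXCL2, had 30, 5, 12, 0 and 1 counts in BMDM 1 to 5, against 5, 10 and 5 counts in microglia 1 to 3. The 0 in BMDM 4 allows up to 0.478 CPM (3 counts, counting error only). Cxcr2 was highest in BMDM 1, which also had the highest sum of 8 neutrophil markers. That sum was 109, 51.8, 64.6, 99.2 and 64.5 CPM in BMDM 1 to 5, against 13.04, 6.44 and 3.78 CPM in microglia 1 to 3. Of the 6 neutrophil markers tested, edgeR called 1 higher in BMDM, S100a8, and DESeq2 called 4. Ly6g, the marker the sort excluded, had 1 count each in BMDM 3 and BMDM 5 and 0 in the other 6 libraries. The part of neutrophil RNA in the Cxcr2 counts was not tested. BMDM 4, second in neutrophil markers, had 0 Cxcr2 counts.

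Cxcr3 (ENSMUSG00000050232.6, chromosome X, 101731535 to 101734269 on the minus strand), the receptor for CXCL9 and CXCL10 on activated T and NK cells, had 9, 4, 20, 3 and 0 counts in BMDM 1 to 5, against 14, 0 and 0 counts in microglia 1 to 3. Zeros allow up to 0.415 CPM in BMDM 5, 0.302 CPM in microglia 2 and 0.334 CPM in microglia 3. Without a filter the log2 fold changes were 0.96 for Cxcr2 (SE 2.16, edgeR adjusted p = 0.878) and 1.73 for Cxcr3 (SE 2.44, edgeR adjusted p = 0.768), with errors larger than the values. Without microglia 1, which held all 14 microglia counts, Cxcr3 was at 5.88 (SE 3.19, edgeR adjusted p = 0.583). The 8 T cell markers summed to 105, 41.9, 67.1, 95.02 and 30.4 CPM in BMDM 1 to 5, against 23.0, 15.9 and 5.12 CPM in microglia 1 to 3. The 8 NK cell markers summed to 5.11 to 175 CPM in BMDM and 1.89 to 10.5 CPM in microglia. For T cell markers edgeR called 0 of 7, with 5 higher before adjustment (p under 0.05), and DESeq2 called 4 higher. For NK cell markers edgeR called 0 of 5 (2 higher unadjusted), and DESeq2 called 1 higher. Their part in the Cxcr3 counts was not tested.

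T cells and neutrophils can also carry Ccr2, Ccr1 or Cxcr4. The summed markers of both cell types were higher in every BMDM library than in any microglia library. So were the summed markers of dendritic cells and of endothelial cells. Those of NK cells, of B cells, and of glial and tumor cells overlapped between the groups. The part of any of these cells in these 3 receptors was not tested.

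Genes whose profile over the 8 libraries lay closest to each receptor were found by the root mean square difference of mean-centred log2 CPM, among 4911 named genes averaging 20 CPM or more. For Ccr2 they were Tmem51 (0.48 log2 units), Napsa (0.54) and Inhba (0.66). For Ccr1 they were Pirb (0.31), Mmp19 (0.38) and Mmp14 (0.39), and for Cxcr4 Metrnl (0.24), Aoah (0.30) and Cib1 (0.34). For Cx3cr1 they were Kctd12 (0.23), Oxct1 (0.26) and Herpud1 (0.27), and for Ccrl2 Ly6e (0.22), Ehd1 (0.29) and Gadd45b (0.31). Ccr2 had no gene as near to it as the nearest of the other 4 receptors, in this measure. The measure is not scaled to the size of a gene's fold change, which was largest for Ccr2 (4.90) among these receptors. Tmem51, Napsa and Inhba had log2 fold changes of 4.95, 4.79 and 4.87.

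Of 16 other chemokine receptors, 7 were tested, and 1 was higher and 0 lower in BMDM (1 higher and 0 lower at an unadjusted p under 0.05 by edgeR, 1 and 0 by DESeq2). Their median log2 fold change was 0.99, against 0.08 for all genes tested. Ccr7, which guides dendritic cells and T cells to lymph nodes, had 40.1, 5.54, 25.3, 29.0 and 0.276 CPM in BMDM 1 to 5, against 0.210, 0.603 and 0 CPM in microglia 1 to 3. BMDM 5 lay within the range of microglia. T cell markers were uneven in that library, with Cd3d at 0.138 CPM and Cd4 at 0.276 CPM, but Cd3e at 7.19 CPM and Cd5 at 8.71 CPM, their highest in any library. Its log2 fold change was 6.15 (SE 1.39, edgeR adjusted p = 0.0346). The call was lost with limma-voom (adjusted p = 0.258) and without BMDM 1, 3 or 4 or any 1 microglia library (adjusted p 0.0732 to 0.309), with 7.11 without microglia 2. The 8 dendritic cell markers (Flt3, Zbtb46, Clec9a and others) summed to 13.1 to 41.3 CPM in BMDM and 7.15 to 11.7 CPM in microglia. The part of T cells and dendritic cells in Ccr7 was not tested.

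Ackr3, a scavenger of CXCL12, was at -0.92 (SE 0.68, edgeR adjusted p = 0.652), Ccr6 at 0.74 (SE 1.40, edgeR adjusted p = 0.903), Cxcr6 at 0.80 (SE 1.43, edgeR adjusted p = 0.893) and Xcr1, a receptor of cross-presenting dendritic cells, at 4.08 (SE 2.21, edgeR adjusted p = 0.467). Xcr1 had 111, 53, 16, 0 and 0 counts in BMDM 1 to 5, against 0, 8 and 0 in microglia 1 to 3. It ranged from 3.45 without microglia 1 to 8.47 without microglia 2, which held all its microglia counts. Xcr1 passed with only BMDM 1 to 3 (4.88, edgeR adjusted p = 0.0433), a setting that leaves out the BMDM libraries at 0. On chromosome 9, Ccr1 and Ccr2 were called higher and Cx3cr1 lower in BMDM, and Ccrl2, Ccr3, Ccr9, Cxcr6 and Xcr1 were not called.

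**Figure D3:**
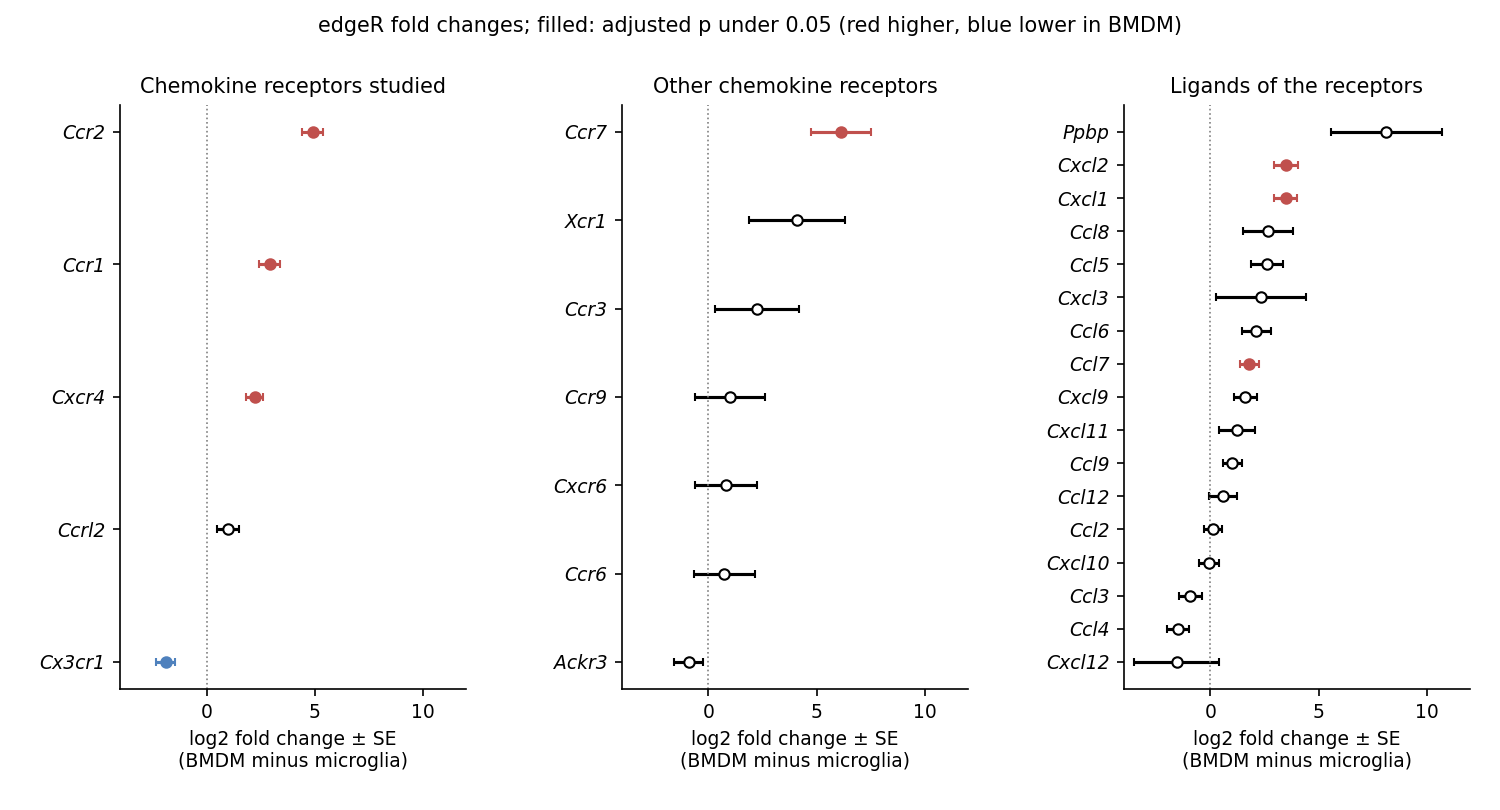
Log2 fold change, BMDM minus microglia (x axis, ± SE from edgeR), of the 5 tested receptors, 7 other chemokine receptors and 17 ligands. Filled points passed an adjusted p of 0.05 (red higher, blue lower in BMDM) and open points did not. Ccr2, Ccr1, Cxcr4, Ccr7, Cxcl1, Cxcl2 and Ccl7 are filled red and Cx3cr1 is filled blue.

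Of 20 ligands of the 7 receptors, 17 were tested, and 3 were higher and 0 lower in BMDM (9 higher and 1 lower at an unadjusted p under 0.05 by edgeR, 7 and 0 by DESeq2). Their median log2 fold change was 1.62, against 0.08 for all genes tested. Cxcl2, a neutrophil attractant acting through CXCR2, had 2928, 1650, 4227, 1997 and 1194 CPM in BMDM 1 to 5, against 153, 232 and 251 CPM in microglia 1 to 3. Its groups were well apart, with a log2 fold change of 3.50 (SE 0.55, edgeR adjusted p = 0.00393). Cxcl1, which binds the same receptor, had 36.1, 19.2, 74.2, 31.7 and 31.5 CPM in BMDM 1 to 5, against 2.79, 3.42 and 4.12 CPM in microglia 1 to 3, and rose by 3.49 (SE 0.52, edgeR adjusted p = 0.00301). Both held under all 17 alternatives. Ccl7, a ligand of CCR2 and CCR1, was higher in BMDM by 1.79 (SE 0.43, edgeR adjusted p = 0.0482), with 27.5 CPM in BMDM 5 and 75.5 to 103 CPM in BMDM 1 to 4, against 22.03 to 25.7 CPM in microglia. That call was lost with limma-voom, with library totals alone and without any 1 library other than BMDM 5 (adjusted p 0.0646 to 0.224).

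Ccl2, the main ligand of CCR2, did not differ beyond its spread, with 72.6, 73.0, 87.1, 163 and 37.0 CPM in BMDM 1 to 5, against 77.0, 86.3 and 73.6 CPM in microglia 1 to 3 (log2 fold change 0.13, SE 0.42, edgeR adjusted p = 0.948). Ccl4 was at -1.49 (SE 0.51, edgeR adjusted p = 0.184) with no overlap between the groups, and Ccl6 at 2.12 (SE 0.67, edgeR adjusted p = 0.139). Cxcl9, a ligand of CXCR3, was at 1.62 (SE 0.52, edgeR adjusted p = 0.151). Ccl8 was at 2.66 (SE 1.15, edgeR adjusted p = 0.317), with 1.12 without BMDM 2 and 4.31 without microglia 2. Ccl4 passed without a filter (edgeR adjusted p = 0.00867) and with only BMDM 1 to 3 (-2.17, edgeR adjusted p = 0.00882). Ccl6 and Cxcl9 passed by DESeq2 (adjusted p = 0.00803 and 0.0112), without a filter, with only BMDM 1 to 3 and without BMDM 5. Cx3cl1, the ligand of CX3CR1, had 13 counts in all BMDM and 20 in all microglia libraries, and was not tested. Cxcl12, the ligand of CXCR4, had 21 counts in BMDM and 69 in microglia, 54 of them in microglia 1. It was tested, at -1.55 (SE 1.96, edgeR adjusted p = 0.835), and the groups overlapped. The chemerin gene Rarres2 had 13 counts in BMDM and 10 in microglia, and was not tested. Ccl2, Cx3cl1, Cxcl12 and Rarres2 were named after their values were seen.

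Of 24 genes that carry receptor signals inside the cell, all tested, 1 was higher and 1 lower in BMDM. At an unadjusted edgeR p under 0.05, 3 were higher and 3 lower, and DESeq2 called 1 higher and 1 lower. Their median log2 fold change was 0.01. Fgr, a Src family kinase of myeloid cells, had 52.9, 44.2, 111, 102 and 25.0 CPM in BMDM 1 to 5, against 7.10, 6.24 and 7.23 CPM in microglia 1 to 3 (log2 fold change 3.29, SE 0.52, edgeR adjusted p = 0.00396, held under all 17 alternatives). Elmo1, which with Dock2 activates Rac, had 26.9, 17.1, 28.4, 23.1 and 14.4 CPM in BMDM 1 to 5, against 57.9, 40.5 and 119 CPM in microglia 1 to 3 (log2 fold change -1.72, SE 0.39, edgeR adjusted p = 0.0353). Its call was lost with limma-voom, with library totals alone and without any 1 of BMDM 1 to 4, microglia 1 or microglia 3 (adjusted p 0.0562 to 0.330). Gnai2, the inhibitory G protein subunit, was at 0.54 (SE 0.43, edgeR adjusted p = 0.689). Lyn was at -0.23, Cdc42 at 0.0046 and Gna13 at 0.08, each smaller than its SE, and Gna13 turned to -0.79 with only BMDM 1 to 3 (edgeR adjusted p = 0.0985).

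Of 15 genes that switch receptors off, 14 were tested and edgeR called 0 (1 higher and 0 lower at an unadjusted p under 0.05, and 0 by DESeq2), with a median log2 fold change of 0.45. Arrb2, a beta-arrestin that uncouples receptors, was at 0.51 (SE 0.35, edgeR adjusted p = 0.615). The G protein regulators Rgs1, Rgs2 and Rgs10 were at 0.64 (SE 0.43), 0.08 (SE 0.38) and -0.49 (SE 0.35), with edgeR adjusted p of 0.597, 0.968 and 0.623.

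**Figure D4:**
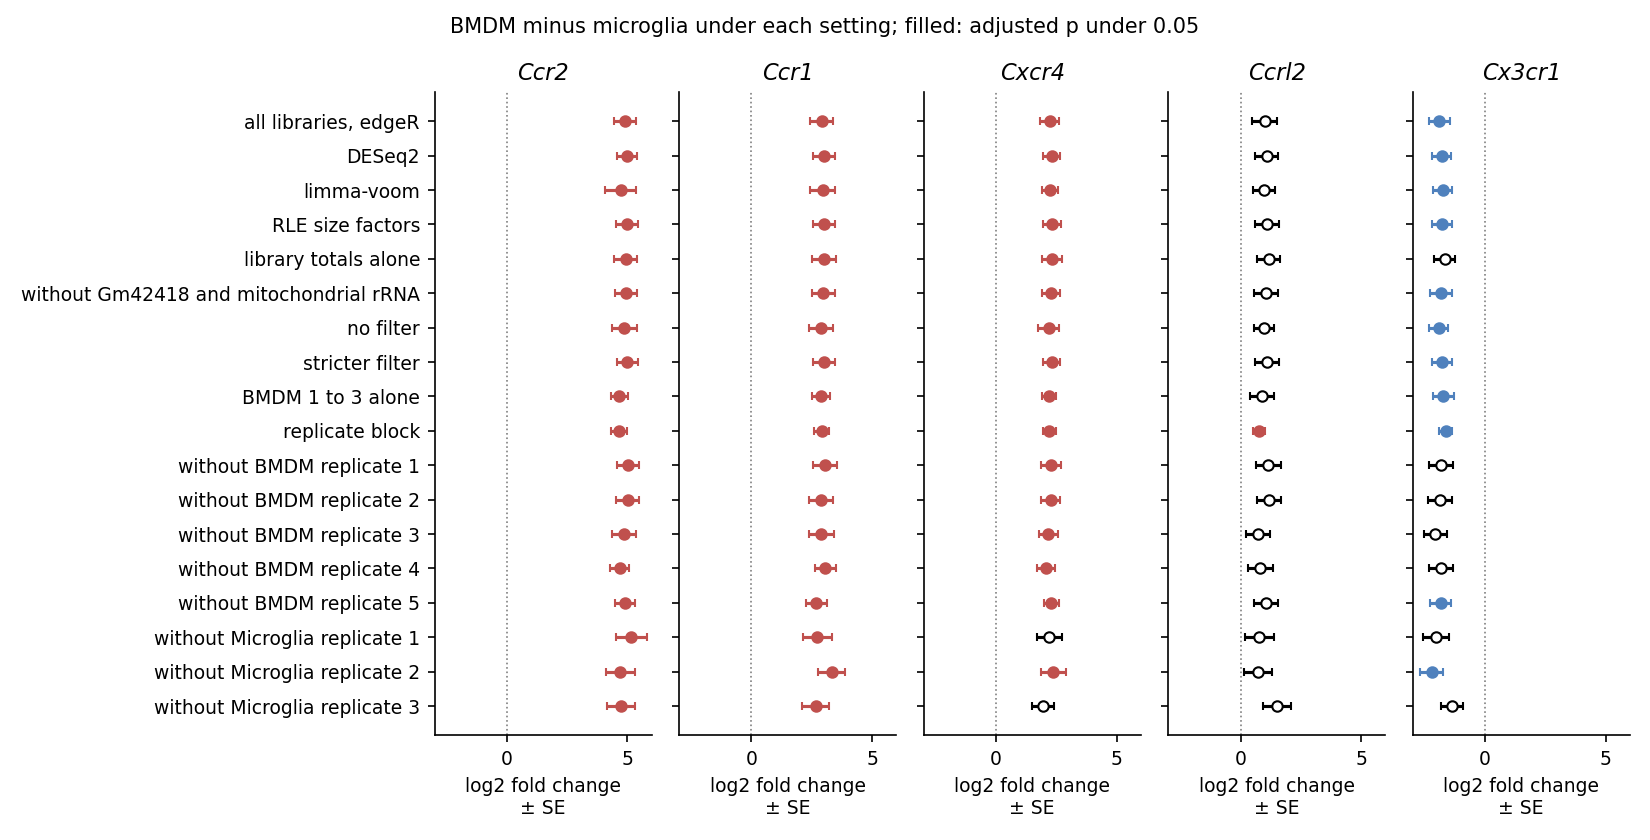
Log2 fold change, BMDM minus microglia (x axis, ± SE), of the 5 tested receptors under the main test and 17 alternatives (rows). Filled points passed an adjusted p of 0.05. Ccr2 and Ccr1 are filled in every row, Cxcr4 in all but those without microglia 1 or microglia 3, and Cx3cr1 in 11 of 18. Ccrl2 is open in 17 of 18.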

How the data were processed

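Gene-level raw counts, unnormalized, were deposited by the authors as 1 table; libraries were made with QuantSeq 3′ FWD, per the labels' protocols. Tools named in the submitters' processing notes are STAR, featureCounts, cutadapt, FastQC and DESeq2, with build mm10. Strand setting and handling of multiply mapped reads are not given in the sources used here. Since 3′ counts do not put different genes on 1 molar scale, levels were compared between libraries, and mean CPM across genes served only to choose which genes to name.

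Counts were tested with edgeR 4.0.16 (R 4.3.3): filterByExpr (minimum count 10, minimum total 15), TMM factors, robust quasi-likelihood fits over all 8 libraries, BMDM minus microglia, Benjamini-Hochberg adjustment over 16467 genes. SE values were derived from the F statistic. Log2 CPM used a prior count of 2. Alternatives used DESeq2 1.42.0, limma 3.58.1 and changes of scaling, filter and libraries, 17 in all. Scripts were tested on simulated counts.

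Members and gene lists were chosen with earlier results of these data known. Named genes were all members, every called gene of a companion list with up to 4 others of highest mean CPM, and the 3 nearest profiles per receptor. No 2 libraries were alike within sampling noise (chi-square per degree of freedom at least 19.0). Positions came from GENCODE M21 (GRCm38) and promoters from RefSeq (GRCm38.p6). An item withheld for evaluation is not reported here.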

Additional observations from a re-analysis of the deposited data

Results flagged for a closer look

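Among 44 quantities examined over the 5 BMDM libraries, 4 had a single library far from the other 4. The cutoff gives about 1 in 20 for independent, normally distributed values. CPM can be skewed, and some sums hold genes also examined alone, so the 4 cannot be read against that rate. Cx3cr1 stood at 949 CPM in BMDM 3, above 518 to 612 CPM in the other BMDM libraries. Ccl8 reached 1510 CPM in BMDM 2, against 50.6 to 289 CPM elsewhere in BMDM. Rgs10 was low in BMDM 5, at 80.2 CPM, against 138 to 156 CPM in BMDM 1 to 4. The 8 endothelial markers summed to 88.9 CPM in BMDM 5, above 65.7 to 69.8 CPM in the other BMDM libraries.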

How the results depend on the processing

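Ccr2 and Ccr1 kept their direction and call under all 17 alternatives. Cxcr4 ranged from 1.95 to 2.38 on leaving out 1 library, and Cx3cr1 from -2.22 to -1.37. With library totals alone Cx3cr1 was at -1.67, leaving 0 receptors and 0 signaling genes lower. That scaling put the median of all genes at 0.20, against 0.08 with TMM. DESeq2 called 601 genes higher and 313 lower, with 7 ligands higher. Limma-voom called 250 genes lower, 0 other receptors higher and 0 signaling genes lower. Without a filter 403 genes were higher and 318 lower, with 6 ligands higher and 1 lower. With only BMDM 1 to 3, 1028 genes were higher and 1312 lower, with 2 other receptors higher, 6 ligands higher and 1 lower, and 2 signaling genes higher and 3 lower. Leaving out 1 library gave 58 to 536 genes higher and 46 to 602 lower, 2 to 3 of the receptors higher and 0 to 1 lower. It also gave 0 to 1 other receptors higher, 2 to 6 ligands higher, and 1 to 2 signaling genes higher and 0 to 2 lower. The cause of these differences was not tested.

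Replicate numbers are shared by the groups, but deviations of same-numbered libraries correlated at 0.28, 0.13 and -0.01. Microglia 1 and 2 were nearest to BMDM 1 (0.28) and BMDM 2 (0.13), and microglia 3 to BMDM 4 (0.27). As 1 pair was below 0.1 and the labels give no pairing, the numbers were not taken to pair the samples; this is a hint from the data, not the design. A replicate block was also tried. Microglia have no replicate 4 or 5, so under the block BMDM 4 and BMDM 5 add nothing to the fold change. The block thus sets BMDM 1 to 3 against the microglia library of the same number. With it Ccrl2 was called at 0.76 (edgeR adjusted p = 0.0406), and 1449 genes were higher and 1774 lower. The block called 2 other receptors higher, 9 ligands higher and 1 lower, and 3 signaling genes higher and 8 lower. It also called Xcr1 (5.69), Ccl8 (3.15), Ccl6 (2.39) and Cxcl9 (1.43) higher and Ccl4 (-2.22) lower.

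Among named genes not called with all libraries, the sign turned for Ccr6 (-0.058), Cdc42 (-0.0042) and Gna13 (-0.12) with limma-voom, for Cdc42 (-0.021) without a filter, for Gna13 (-0.79) and Rgs2 (-0.012) with only BMDM 1 to 3, and for Gna13 (-0.78, called lower, edgeR adjusted p = 0.0392) and Rgs2 (-0.0028) with the replicate block. Leaving out 1 library gave -0.18 to 0.23 for Cdc42, -0.38 to 0.27 for Gna13, -0.091 to 0.21 for Rgs2 and -0.43 to 0.016 for Lyn. Depth limits Cxcr2 and Cxcr3, which had 48 and 36 counts in BMDM, and 20 and 14 in microglia.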
